A study of Homo sapiens with 8 samples.

Results

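The guides described here target the messenger RNAs of the proteasome, the protease complex that degrades ubiquitin-tagged proteins. They were found by gene symbol, as every row of a PSMA, PSMB, PSMC, PSMD, PSME, PSMF or PSMG gene, POMP or ADRM1 that was not a non-essential control. The rule found 1038 of the 46829 guides of the table, on 140 of its 6735 splice junctions and in 27 of its 1250 genes. No row was found for POMP, ADRM1 or a PSMF gene. Of the 27 genes, 9 encode subunits of the core particle (4 PSMA and 5 PSMB genes, with 221 guides), 13 encode subunits of the regulatory particle (6 PSMC and 7 PSMD genes, 716 guides), and 5 encode the activator PSME3 and the assembly chaperones PSMG1, PSMG2, PSMG3 and PSMG4 (101 guides).

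The libraries came from A375 cells, an established human melanoma line, with RfxCas13d under a doxycycline-responsive TetO promoter. RfxCas13d is a nuclease that cuts the RNA its guide pairs with, so a guide lowers a transcript and leaves the gene intact. The cells derive from a single clone, so effects of that clone and of the line cannot be told apart. All groups carried the nuclease gene and the lentiviral guides: untreated cells at Day 0, and cells in 1 ug/ml doxycycline at Day 7, Day 14 and Day 21, with 2 replicates each. Guide abundance was read from genomic DNA. The table calls the replicates biological, but whether they were separate cultures is not stated, and p-values then measure only the spread between these samples. The value of a guide is its log2 fold change against Day 0 of the same replicate, as deposited, where −1 is a 2-fold drop in relative abundance, and a gene's or junction's value is the mean over its guides.

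The proteasome is built from a core particle and a cap. The core stacks rings of alpha subunits, which gate the entry, around rings of beta subunits, some of which carry the protein-cutting sites. The cap, the regulatory particle, has a base with a ring of ATPases that unfolds substrates and a lid that removes ubiquitin. Dividing cells, tumour lines included, generally depend on the complex, and its subunits are common positive controls in screens for essential genes.

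Guides are numbered within a junction in the table, and their sequences were not used here. Positions are the junction starts and ends as the table lists them, and the submitters' processing notes name hg38. All 140 junctions lay inside the RefSeq span of the gene with the same symbol in GRCh38.p14. Each is a join of exons across an intron, and is numbered below from the 5' to the 3' end of the gene, counting targeted junctions only. A junction had at most 8 guides, and 135 junctions with at least 3 guides were tested. The junction test gave every junction 1 common SE, 0.36, so its very small p-values rest on a spread pooled over all junctions and take a junction with 3 guides to vary like one with 8.

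Read depth was not stated. The fold changes had the form of ratios of whole numbers, and the smallest Day 0 number that fitted the 3 days of a guide had a median of 90 in replicate 1 and 121 in replicate 2 over the proteasome guides. This implied number is a lower bound and includes any pseudocount. At Day 21 it had reached 1, the lowest possible, for 69 of the 1038 guides (6.65%) in replicate 1 and 82 (7.9%) in replicate 2. Their fold changes may be bounds, which cannot be settled without the read counts and the pseudocount. The background came from 963 non-targeting guides, whose mean lay between −0.10 and −0.01 in the 6 libraries.

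Proteasome guides were lost over the 3 weeks, and the loss was concentrated in some subunits. At Day 21, 10 of the 27 genes had fallen (limma, Benjamini-Hochberg adjusted p under 0.05 over all 1223 genes tested), which is 37.0% against a background of 20.8% of all genes and 28.2% of the 829 tested genes that carried a score from a Cas9 screen. They were PSMD1, PSMD2, PSMA3, PSMC6, PSMD14, PSMA5, PSMB1, PSMD4, PSMD7 and PSMC1, with means from −3.80 to −0.80. None was higher, and 16 of the 27 had an unadjusted limma p under 0.05. The median gene mean was −0.58 for the proteasome, −0.43 for scored genes and −0.28 for all genes tested. With the replicate number as a block the Day 21 count was 17, 63.0% against 45.5% of all genes in that fit. With the median over the guides of a gene it was 1 (PSMD2), 3.70% against 2.04% of all genes, the medians of the 10 genes running from −4.26 for PSMD1 to −0.14 for PSMC1. With libraries centred on all guides it was 2 (PSMD1 and PSMA3), 7.41% against 5.07% of all genes. That centring raises all values of Day 21 by the size of the table's median guide, −0.33 in replicate 1 and −0.28 in replicate 2.

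The count grew with time. At Day 7, PSMD1 and PSMD2 had fallen, 2 of 27 genes against 3.92% of all genes and 5.43% of scored genes. At Day 14 the count was 9, the genes named above without PSMC1, against 22.1% of all genes and 29.4% of scored genes. The 33.3% of members was close to the share of scored genes. With the replicate block it was 16 at Day 14 (59.3% against 38.3% of all genes) and 1 at Day 7 (3.70% against 3.43%), where PSMD2 left the threshold. The Day 7 count was 0 in 4 of the other settings and without either Day 7 replicate.

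Averaged over the 27 genes, the difference to non-targeting guides came to −0.18 ± 0.119 (SD, n = 2) at Day 7, −0.61 ± 0.0372 (SD, n = 2) at Day 14 and −0.75 ± 0.0491 (SD, n = 2) at Day 21. It was below 0 in both replicates on each day, with −0.72 and −0.79 in the replicates at Day 21, and exceeded the spread between replicates. An exact two-sided sign-flip test over 2 replicates cannot give less than 0.5, which is its p here on each day. Without PSMD1 and PSMD2, the lowest genes, the Day 21 difference was −0.57. Of all proteasome guides, 41.6% in replicate 1 and 39.8% in replicate 2 were at −1 or lower at Day 21. Among non-targeting guides these shares were 17.2% and 16.4%.

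The alpha ring was represented by PSMA3, PSMA4, PSMA5 and PSMA7, of which PSMA3 and PSMA5 fell. PSMA3 was the lowest core gene. Its 40 guides averaged −0.18 and −0.55 at Day 7, −1.68 and −1.80 at Day 14 and −1.81 and −1.71 at Day 21 (replicate 1 first, here and below). Both Day 7 values lay above those of Day 14 and Day 21, which overlapped. Its Day 21 mean was −1.76 ± 0.07 (SD, n = 2), with SE 0.14, limma adjusted p 0.0126. Junction 4 of 5 (chr14:58270485-58270933) was the lowest, at −3.94 and −3.96 at Day 21 (limma adjusted p 2.48e-26). The next one downstream, junction 5 (chr14:58270998-58271850), was the highest, at −0.13 and −0.09 (0.909). Neighbouring junctions of 1 transcript thus stood at the ends of the gene's range. Junctions 1 and 2 also fell, at −1.45 and −2.78, while junction 3 was at −0.51.

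PSMA5 showed the same kind of unevenness. Its 39 guides averaged −0.10 and −0.54 at Day 7, −1.33 and −1.20 at Day 14 and −1.14 and −1.28 at Day 21, with the Day 14 and Day 21 values overlapping and both below Day 7. The Day 21 mean was −1.21 ± 0.10 (SD, n = 2), with SE 0.15, limma adjusted p 0.0203. The called junctions lay at the 5' end: junction 1 (chr1:109413135-109415236) was at −1.36 and −1.51 (limma adjusted p 0.000392) and junction 2 (chr1:109411935-109412076) at −2.87 and −3.70 (1.51e-18). Junctions 3, 4 and 5 had means of −0.28, −0.55 and −0.41 and did not pass, junction 3 (chr1:109411113-109411876) being the highest. Each of them still held 1 guide called lower, and junctions 4 and 5 also held 1 called higher each.

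PSMA7 and PSMA4 did not pass at gene level, and both were covered by few guides. PSMA7 had 24 guides and a Day 21 mean of −0.55 ± 0.35 (SD, n = 2), with SE 0.19, limma adjusted p 0.145. Among its 3 junctions the partial_unique junction 2 (chr20:62138290-62139074), a category that the table names without defining it, fell to −0.96 (limma adjusted p 0.0305). The other partial_unique one, junction 3 (chr20:62136949-62137363), was at −1.01 and 0.49 in the replicates, on opposite sides of 0. PSMA4 had 7 guides on a single partial_unique junction (chr15:78544267-78544868). It averaged −0.15 and 0.12 at Day 7, −0.19 and −0.35 at Day 14 and 0.05 and −0.98 at Day 21. Its replicates disagreed at Day 21, where replicate 1 lay above 0 and replicate 2 near −1, and its limma adjusted p was 0.382. Without Day 21 replicate 1 it passed, and without replicate 2 it stood at 0.05.

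In the beta ring, PSMB1 fell and PSMB2, PSMB3, PSMB4 and PSMB7 did not pass. PSMB1, a structural beta subunit, averaged −0.15 and −0.52 at Day 7, −0.94 and −0.82 at Day 14 and −1.30 and −1.01 at Day 21 over 16 guides. Every value was below 0, and those of Day 14 and Day 21 were all below those of Day 7. Its Day 21 mean was −1.16 ± 0.20 (SD, n = 2), with SE 0.16, limma adjusted p 0.0245. With guides of an implied Day 0 number of at least 50 the mean was −0.51 and did not pass. The loss lay at the 5'-most junction (chr6:170549113-170553129), at −3.09 and −2.04 (limma adjusted p 1.18e-11), against −0.05 and −0.32 at junction 2 (chr6:170543730-170546102, 0.824). Junction 3 (chr6:170537340-170543600) had 1 guide and was not tested, at 1.25 and 0.62.

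PSMB2, another structural subunit, had a Day 21 mean of −0.71 ± 0.02 (SD, n = 2), with SE 0.14, limma adjusted p 0.0525, just outside the threshold. Its replicate values were close, at −0.72 and −0.69, and it passed with the replicate block (limma adjusted p 0.00236). Of its junctions, junction 2 fell to −1.20 (limma adjusted p 0.00418), and junctions 1 and 3 were at −0.88 and −0.10. PSMB4 was at −0.52 ± 0.16 (SD, n = 2), with SE 0.15, limma adjusted p 0.105, and its first junction (chr1:151400187-151400441) passed at −0.91 (limma adjusted p 0.044). Junctions 2, 3 and 4 of PSMB4 had means of −0.51, −0.75 and 0.09. All junctions of PSMB1, PSMB3, PSMB4 and PSMB7 are listed as single_unique.

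PSMB7 encodes one of the catalytic beta subunits. Its 32 guides averaged 0.03 and −0.08 at Day 7, −0.33 and −0.14 at Day 14 and −0.46 and −0.18 at Day 21, with a Day 21 mean of −0.32 ± 0.19 (SD, n = 2), limma adjusted p 0.254. None of its 4 junctions passed: junction 3 (chr9:124405432-124412351) was the lowest, at −1.79 and 0.08, and junction 4 (chr9:124353709-124356763) the highest, at 0.59 and 0.38, with −0.56 and −0.34 at junctions 1 and 2. The replicates of junction 3 lay on opposite sides of 0. PSMB3 had 8 guides on a single junction (chr17:38753334-38755882) and averaged 0.08 and −0.16 at Day 7, −0.48 and 0.02 at Day 14 and −0.24 and 0.25 at Day 21. At a mean of 0.0036 and replicates on either side of 0, it was the highest core gene at Day 21 (limma adjusted p 0.993).

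The ATPases of the base, PSMC1 to PSMC6, work as a single ring, yet their guides differed widely: PSMC6 and PSMC1 fell, and PSMC2, PSMC4 and PSMC5 stood near the non-targeting level. PSMC6 averaged −0.14 and −0.20 at Day 7, −0.76 and −1.24 at Day 14 and −1.51 and −1.60 at Day 21 over 67 guides. At every step from Day 7 to Day 21 both replicates were lower than before, with no overlap between days. Its Day 21 mean was −1.56 ± 0.06 (SD, n = 2), with SE 0.14, limma adjusted p 0.0136. Of 9 tested junctions 6 fell (junctions 1, 2, 4, 5, 6 and 10), the lowest being the most 3' one, junction 10 (chr14:52724036-52727498), at −3.65 and −3.05 (limma adjusted p 2.83e-19). Its neighbour, junction 9 (chr14:52719038-52720860), was the highest, at −0.62 and −0.19 (0.516). Junction 3 had 2 guides and was not tested, at −3.59 and −5.33.

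PSMC1 was the weakest of the called genes. It averaged −0.10 and −0.10 at Day 7, −0.40 and −0.75 at Day 14 and −0.69 and −0.91 at Day 21 over 34 guides, with replicate 2 the lower at Day 14 and Day 21. Its Day 21 mean was −0.80 ± 0.16 (SD, n = 2), with SE 0.15, limma adjusted p 0.0482, and the call was lost after centring on non-targeting guides (0.069) and under robust moderation of the variance (0.0504). Junction 3 (chr14:90263847-90264040) was the lowest tested, at −1.95 and −2.63 (limma adjusted p 1.94e-09), and junction 1 fell to −1.61. Junction 5 (chr14:90269548-90270197) was the highest, at 0.85 and 0.33 (0.262). PSMC3, next in order, had a gene mean of −0.58 ± 0.12 (SD, n = 2), with SE 0.15, limma adjusted p 0.0818, and 2 of its 6 junctions fell, junction 1 to −1.82 and junction 4 to −0.93.

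The means of the other ATPases stayed close to 0, and with libraries centred on all guides all 3 turned positive, at 0.17, 0.18 and 0.23 for PSMC2, PSMC4 and PSMC5. PSMC2 averaged −0.14 and −0.06 at Day 7, −0.10 and 0.02 at Day 14 and −0.21 and −0.06 at Day 21 over 40 guides (Day 21 mean −0.13, limma adjusted p 0.58). Its 5 junctions ranged from −0.42 at junction 1 (chr7:103362758-103363343) to 0.10 at junction 4 (chr7:103367615-103367712), and none passed. PSMC4, with 72 guides the most densely covered ATPase, averaged 0.03 and 0.0011 at Day 7, −0.11 and −0.03 at Day 14 and −0.04 and −0.22 at Day 21 (Day 21 mean −0.13, limma adjusted p 0.602). Among 9 junctions of PSMC4, junction 8 (chr19:39980454-39980661) fell to −1.04 (limma adjusted p 0.0157), with −0.42 and −1.66 in the replicates, while junction 9 (chr19:39980717-39981191) was the highest at 0.42. PSMC5 averaged 0.04 and 0.05 at Day 7, 0.05 and −0.08 at Day 14 and −0.05 and −0.11 at Day 21 over 52 guides (Day 21 mean −0.08, limma adjusted p 0.743) and was the highest regulatory gene. Its 7 junctions ranged from −0.84 at junction 3 (chr17:63830935-63831035) to 0.42 at junction 6 (chr17:63831616-63831723), and none passed. The SE of their Day 21 means was 0.15, 0.15 and 0.14, close to that of PSMC6. The gene SE rests largely on a spread pooled over all genes, so this closeness does not show how precisely each gene was measured. Their SDs over the replicates were 0.10, 0.13 and 0.04, against 0.06 for PSMC6.

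The non-ATPase base subunits PSMD1, PSMD2 and PSMD4 all fell, and the strongest loss was that of PSMD1 and PSMD2. PSMD4 ranked 8 from the lowest among the 27 members. PSMD1 and PSMD2 are the large scaffold subunits of the base, and PSMD4 is a ubiquitin receptor. PSMD1 averaged −1.19 and −2.23 at Day 7, −2.80 and −3.83 at Day 14 and −3.49 and −4.11 at Day 21 over 83 guides, and replicate 2 was the lower one each day. Within each replicate every day lay below the one before, and across replicates the values of Day 14 and Day 21 overlapped. Its Day 21 mean was −3.80 ± 0.43 (SD, n = 2), with SE 0.22, limma adjusted p 0.0107, and it ranked 19 from the lowest among the 829 scored genes tested. Of its 83 guides 59 (71.1%) were called lower one by one. The implied number had dropped to 1 for 27 (replicate 1) and 31 (replicate 2) of them, so the gene mean may be a bound as well.

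All but 1 of the 12 PSMD1 junctions fell. The lowest were junction 9 (chr2:231080314-231082882), at −5.20 and −6.49, and junction 11 (chr2:231083763-231085018), at −4.77 and −6.91 (limma adjusted p 2.02e-55 and 2.06e-55). Every guide of these junctions was low, between −7.17 and −3.98 for junction 9 and between −7.27 and −4.84 for junction 11 in the mean of both replicates. Junction 6 (chr2:231077162-231078658), with 3 guides, was the exception at 0.20 and −1.16 (0.399). The last junction, 12 (chr2:231153666-231161339), was also mild at −0.95 (0.0334), and it lies far downstream of the others.

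PSMD2 averaged −0.50 and −0.76 at Day 7, −1.71 and −2.41 at Day 14 and −2.06 and −2.73 at Day 21 over 110 guides, the most of any member. Replicate 2 was again lower on every day, and all Day 14 and Day 21 values were below both Day 7 values. The Day 21 mean was −2.40 ± 0.47 (SD, n = 2), with SE 0.23, limma adjusted p 0.0144, and 48 of the guides (43.6%) were called lower. Of 14 tested junctions 11 fell, led by junction 5 (chr3:184303466-184303642), at −3.79 and −5.74 (limma adjusted p 7.54e-38). Junction 9 (chr3:184305930-184306053) was the highest, at −0.37 and 0.12 (0.9), and lay between junction 8 at −2.86 and junction 10 at −1.54. PSMD4 averaged −0.09 and −0.36 at Day 7, −0.84 and −0.92 at Day 14 and −1.13 and −1.11 at Day 21 over 45 guides, with a Day 21 mean of −1.12 ± 0.01 (SD, n = 2) and SE 0.14, limma adjusted p 0.0213. Its last junction, 6 (chr1:151266587-151267172), was the lowest at −2.87 and −2.45 (limma adjusted p 1.98e-12), and the adjoining junction 5 (chr1:151266439-151266519) the highest at 0.49 and 0.31 (0.519).

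In the lid, PSMD14 and PSMD7 fell, and PSMD8 and PSMD12 did not pass. PSMD14 is the enzyme that removes ubiquitin chains from substrates, and PSMD7 is its partner. PSMD14 averaged −0.16 and −0.28 at Day 7, −0.995 and −0.98 at Day 14 and −1.39 and −1.25 at Day 21 over 63 guides, with replicates within 0.14 of each other at Day 21. The Day 21 mean was −1.32 ± 0.10 (SD, n = 2), with SE 0.15, limma adjusted p 0.0175. Its 3 called junctions were junctions 2, 3 and 4, with means of −3.82, −3.18 and −1.91. The lowest, junction 2 (chr2:161316569-161318821), was at −3.34 and −4.31 (limma adjusted p 8.69e-25). From junction 6 to junction 9 the means lay between −0.47 and −0.16, the highest at junction 8 (chr2:161395203-161408836), and none passed. Junction 1 was at −0.35, and junction 5, with 2 guides, was not tested, at −0.18. All PSMD14 junctions are listed as single_unique.

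PSMD7 averaged −0.14 and −0.38 at Day 7, −1.04 and −0.84 at Day 14 and −1.18 and −1.03 at Day 21 over 32 guides. Day 14 and Day 21 values overlapped and lay below Day 7. Its Day 21 mean was −1.10 ± 0.11 (SD, n = 2), with SE 0.15, limma adjusted p 0.0232. Junction 1 (chr16:74300206-74301051) was the lowest at −2.23 and −2.50 (limma adjusted p 5.13e-10), junction 3 fell to −1.42, and junction 4 (chr16:74302292-74304302) was the highest at 0.12 and −0.28 (0.936). PSMD8, a further lid subunit, had a Day 21 mean of −0.76 ± 0.16 (SD, n = 2), with SE 0.15, limma adjusted p 0.0534. Its 4 partial_unique junctions split evenly: the outer ones, 1 (chr19:38374961-38376159) and 4 (chr19:38380999-38382116), fell to −1.28 and −1.67 (limma adjusted p 0.00199 and 2.46e-05), and the inner ones, 2 (chr19:38376454-38379239) and 3 (chr19:38379405-38380898), were at −0.03 and −0.07. PSMD12, the highest PSMD gene, had a mean of −0.65 ± 0.18 (SD, n = 2), with SE 0.16, limma adjusted p 0.0728. Junction 1 of PSMD12 fell to −2.75 and junction 2 to −0.98, while junctions 4, 5 and 6 were at 0.28, 0.09 and 0.14.

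The members outside the core and the cap did not pass. PSME3, a nuclear activator that docks on the core, averaged 0.04 and −0.34 at Day 7, −0.37 and −0.40 at Day 14 and −0.45 and −0.55 at Day 21 over 24 guides, with a Day 21 mean of −0.50 ± 0.07 (SD, n = 2) and SE 0.14, limma adjusted p 0.0987. It passed with the replicate block (limma adjusted p 0.0105). So did PSMB2, PSMD8, PSMD12, PSMC3, PSMB4 and PSMA7, which the main fit did not call either. Its junction means went in order along the gene from −0.83 at junction 1 (chr17:42839012-42839111) to −0.18 at junction 3 (chr17:42839380-42841497), and none passed. The chaperones that build the alpha ring had smaller means. PSMG1 averaged 0.15 and 0.06 at Day 7, −0.21 and −0.06 at Day 14 and −0.28 and −0.21 at Day 21, with a Day 21 mean of −0.24 (limma adjusted p 0.32). PSMG2 averaged −0.07 and −0.03 at Day 7, −0.35 and −0.08 at Day 14 and −0.44 and 0.05 at Day 21, with a Day 21 mean of −0.19 (limma adjusted p 0.549). The replicates of PSMG2 lay on opposite sides of 0 at Day 21, and the sign of both means changed with the setting.

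PSMG3 and PSMG4, which act as a pair in the same step, stayed near 0. PSMG3 averaged 0.00058 and 0.12 at Day 7, −0.19 and 0.22 at Day 14 and 0.02 and 0.10 at Day 21, with a Day 21 mean of 0.06 (limma adjusted p 0.816). PSMG4 averaged 0.02 and −0.10 at Day 7, −0.21 and −0.05 at Day 14 and 0.04 and 0.01 at Day 21, with a Day 21 mean of 0.03 (limma adjusted p 0.91). Their fully_unique junctions, likewise named without a definition, were at 0.03 for junction 1 of PSMG3 (chr7:1569360-1570008) and −0.15, −0.07 and 0.40 for PSMG4 (chr6:3263759-3267590, chr6:3263759-3264208 and chr6:3264325-3267590). Junction 1 of PSMG4 joins the outer ends of its junctions 2 and 3. PSMG3 also had the common junction 2 (chr7:1567850-1569123), at 0.09. Of the junctions of PSMG1 and PSMG2, the lowest were junction 1 of PSMG1 (chr21:39177571-39178448), at −0.52, and junction 2 of PSMG2 (chr18:12718635-12720509), at −0.65. The highest were junction 2 of PSMG1 (chr21:39175664-39177434), at 0.0032, and junction 1 of PSMG2 (chr18:12706721-12712701), at 0.10. With 2 of 77 guides called lower (2.6%), the 4 chaperones stayed under the 11.1% of all guides.

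Core and regulatory genes were then compared. At Day 21 the mean over gene means was −0.74 ± 0.0568 for the 9 core genes and −1.11 ± 0.0402 for the 13 regulatory genes (SD, n = 2). Core minus regulatory was 0.37 ± 0.097 (SD, n = 2), with 0.30 and 0.43 in the replicates. The regulatory genes were the lower class in both replicates by more than the spread, with the exact sign-flip p at its limit of 0.5. At Day 14 the difference was 0.24 ± 0.247 (SD, n = 2), with 0.06 and 0.41 in the replicates, which is within the spread. At Day 7 it was 0.11 ± 0.000274 (SD, n = 2). The difference rested on PSMD1 and PSMD2: leaving them out gave 0.00443 for Day 21, and the sign turned for Day 14 (−0.0896) and Day 7 (−0.0457).

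Within the cap the families stood further apart than core and cap did. PSMC minus PSMD genes gave 1.05 ± 0.0229 (SD, n = 2) at Day 21, with 1.03 and 1.06 in the replicates, and the ATPases were the higher group at Day 7 and Day 14 too, by 0.40 and 0.97. Without PSMD1 and PSMD2 the Day 21 gap was 0.45 ± 0.138 (SD, n = 2). These comparisons were chosen after their values were seen. The means by role were −2.44 for the non-ATPase base, −0.997 for the alpha ring, −0.96 for the lid, −0.54 for the ATPases, −0.54 for the beta ring and −0.09 for the core chaperones, with SDs over the replicates of 0.298, 0.104, 0.134, 0.0279, 0.185 and 0.109. The non-ATPase base mean rested on PSMD1 and PSMD2, with PSMD4 at −1.12. The alpha ring and the lid, and the ATPases and the beta ring, did not differ beyond that spread. Alpha minus beta was −0.46 ± 0.289 (SD, n = 2).

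At junction level 54 of 135 proteasome junctions fell (40%) and none rose (limma; 63 had an unadjusted p under 0.05), against 25.3% lower among all 6401 junctions tested. With the replicate block 72 fell and 3 rose, 53.3% and 2.22% against 39.3% and 4.76% of all junctions in that fit. The regulatory genes had 45 of 94 (47.9%), and 23 of 68 (33.8%) without PSMD1 and PSMD2. The core genes had 9 of 28 (32.1%). By role, 25 of 32 junctions of the non-ATPase base fell (3 of 6 in PSMD4), 6 of 14 of the alpha ring, 9 of 22 of the lid, 11 of 40 of the ATPases, 3 of 14 of the beta ring and 0 of 10 of the core chaperones.

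Junctions of 1 gene differed widely. The gap between the lowest and the highest tested junction reached 5.36 in PSMD1 and 4.65 in PSMD2, and was 3.84 in PSMA3 and 3.66 in PSMD14. Of the variation in Day 21 guide values, 25.4% lay between genes, 23.0% between junctions of a gene and 51.6% among guides of a junction. For all scored genes the shares were 19.8%, 24.1% and 56.0%. Junction means were similar in the replicates, with Pearson's r of 0.88 over 135 junctions, against 0.66 over the 1038 guides. Guides and junctions are not independent, and each replicate's values share its Day 0 library.

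The position of a junction in its gene was looked at after the values had been seen. In the 22 proteasome genes with at least 3 tested junctions, the 5'-most one minus the mean of the others averaged −0.51 in replicate 1 and −0.44 in replicate 2. It was the lower in both replicates in 11 genes and the higher in both in 5. The 3'-most junction lay above the others by 0.38 and 0.64, higher in both replicates in 13 genes and lower in both in 3. PSMC6 and PSMD4, with a low last junction, were among the latter. In the 600 scored genes with as many junctions these averages were 0.02 and 0.05 for the first junction and 0.05 and 0.02 for the last. Of them 28% had the first junction lower in both replicates and 40.8% higher, and 42.7% had the last one higher and 28.3% lower. The difference between the proteasome and the scored genes was not tested.

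By category, 46 of 105 common junctions fell (43.8%), with a median of −0.72, against 25.3% of all junctions tested. Of 19 single_unique junctions 5 fell (26.3%, near that background, median −0.47). Of 7 partial_unique ones 3 fell (42.9%, median −0.47), and of 4 fully_unique ones 0 (median −0.02, limma). The share of each category over all genes is not given here. All PSMD1 and PSMD2 junctions are common, the partial_unique ones belong to PSMA4, PSMA7 and PSMD8, and the fully_unique ones to PSMG3 and PSMG4. Except within PSMA7 and PSMG3, which hold a common junction beside another category, category and gene cannot be told apart. The length of the span between the joined exons had no visible relation to the Day 21 junction mean (Pearson's r −0.06 with log10 of the length, 135 junctions of 27 genes).

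At guide level, 228 of the 1038 guides were called lower at Day 21 (22.0%), against 11.1% of all 46829 guides, and 3 were called higher, against 0.218%. With the replicate block the counts were 314 lower and 40 higher, 30.3% and 3.85% against 19.3% and 4.09% of all guides in that fit. The share called higher was thus near its background. Without Day 21 replicate 1 the higher ones numbered 10, or 0.963% against 0.679% of all. PSMD1 and PSMD2 supplied 107 of the lower ones. Without these genes, regulatory guides were called lower in 14.9% of cases and core guides in 18.1%. The lowest PSMD1 guide, number 6 of junction 10 (chr2:231082994-231083566), went from −2.25 and −4.11 at Day 7 over −4.35 and −7.94 at Day 14 to −7.42 and −7.67 at Day 21 (limma adjusted p 2.02e-07). Its implied number fell from 179 and 186 at Day 0 to 1 in both replicates, so the fold change may be a bound. The highest PSMD1 guide, number 7 of junction 6, was at 3.18 and −1.11 at Day 21 (0.688), with replicates that went opposite ways.

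In PSMA3 the lowest guide was number 3 of junction 4, at −0.55 and −3.20 at Day 7, −6.51 and −6.65 at Day 14 and −6.13 and −6.38 at Day 21 (limma adjusted p 6.16e-07). Its implied number was 73 and 76 at Day 0 and 1 in both replicates at Day 21. The highest, number 1 of junction 3, was at 2.36 and 0.64 (0.368). PSMC5, though near 0 as a gene, had a guide with a strong loss: number 5 of junction 3 went from −1.32 and −0.68 at Day 7 over −1.91 and −2.35 at Day 14 to −3.11 and −3.86 at Day 21 (limma adjusted p 0.00225). Its highest guide, number 7 of junction 4, was at 2.75 and 1.62 (0.0912). In PSMB3 the lowest guide, number 7, was at −1.25 and −0.89 and the highest, number 2, at −0.65 and 2.57, and neither passed (0.614 and 0.705).

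The 3 guides called higher, a share near the background given above, lay in genes that were not higher as a whole. No member gene was called higher. Both PSMA5 guides came from its 3' junctions: number 6 of junction 4, at 1.91 and 3.58 at Day 21 (limma adjusted p 0.0223), and number 3 of junction 5, at 1.68 and 3.36 (0.0418). The PSMC4 guide, number 2 of junction 7, went from 1.13 and 2.17 at Day 7 over 0.61 and 3.32 at Day 14 to 2.68 and 2.81 at Day 21 (0.0201). Its implied Day 0 numbers were 36 and 38, under the median of proteasome guides. All 3 were above 0 in both replicates at each day. They were picked by their Day 21 values, and the days of a replicate share its Day 0 library, so the earlier days are no independent support.

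The time course was tested as the Day 21 minus Day 7 difference within each replicate. It was below 0 for 10 of the 27 genes (limma, Benjamini-Hochberg adjusted p under 0.05), against 23.5% of all genes and 30.0% of scored genes. They were the 10 genes called at Day 21. Both tests use the same Day 21 values, so this match is no independent support. PSMD1 moved by −2.30 in replicate 1 and −1.88 in replicate 2, and PSMD2 by −1.56 and −1.97. For both genes the larger part of the move came before Day 14, and PSMA3 and PSMA5 moved little after it. An implied number of 1 was reached at Day 21 by 12 and 24 PSMD2 guides and 8 and 3 PSMA3 guides. In PSMA5 it was reached by 3 guides in each replicate, and the PSMD1 numbers are given above. Later moves of these genes may thus be bounds, and a slowing cannot be read from them. From Day 7 to Day 14 PSMA3 moved by −1.50 and −1.25, and from Day 14 to Day 21 by −0.13 and 0.09. PSMC6 went on falling, by −0.63 and −1.04 in the second week and −0.75 and −0.36 in the third. PSMA5 moved in that week by 0.19 and −0.08. With the median over guides the count of genes was 2, 7.41% against 3.76% of all genes in that fit. It was 5 with centring on all guides, 18.5% against 8.99%. Fewer genes passed than in the main fit when either Day 21 replicate was left out. Without replicate 2 the share of members was then no higher than that of all genes. The PSMD1 change was −2.40 without Day 21 replicate 1 and −1.78 without Day 21 replicate 2.

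The Cas9 score of the table, the GeCKO gene score, had little relation to the Cas13 values. It ran from −1.56 for PSMB4 to −0.85 for PSMG2, and how it was made is not stated. Over the 27 genes Pearson's r with the Day 21 mean was 0.21 and Spearman's rho 0.27, as a description. The 4 lowest scores belonged to the beta ring genes PSMB4, PSMB7, PSMB3 and PSMB1 (−1.56, −1.49, −1.48 and −1.45), of which PSMB1 alone fell here. PSMD4, with −0.89 near the top of the scores, did fall. The table types 21 of the 27 genes as essential under Cas13 and PSMA4, PSMA7, PSMB3, PSMD8, PSMG3 and PSMG4 as not essential. All 10 called genes are of the first type. Its criterion is not stated and may rest on these same values, so the match is no independent check. The first type also holds PSMC2, PSMC4 and PSMC5, with means near 0.

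Genes with more guides had lower means (Pearson's r −0.66 over 27 genes), with PSMD1 and PSMD2 the most densely covered, and the part of coverage in the gene values was not tested. PSMC4, with 72 guides, stood near 0. The implied Day 0 number of a guide had little relation to its Day 21 value (Pearson's r −0.04 in replicate 1 and −0.10 in replicate 2 over 1038 guides, on the log2 scale).

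Other genes of the ubiquitin-proteasome pathway came from a fixed list, of which 5 are given here. Of these 5 genes UBE2D3 and VCP fell and none was higher, against 20.8% lower among all genes. UBE2D3, a ubiquitin-conjugating enzyme, had a Day 21 mean of −1.79 ± 0.36 (SD, n = 2; limma adjusted p 0.0175). That mean rested on 8 guides over 2 junctions, against 56 to 88 guides for the other genes given here. VCP, the ATPase that extracts ubiquitinated proteins before degradation, was at −1.54 and −1.45 (0.0145). UBA1, the main ubiquitin-activating enzyme, had a mean of −0.77 (0.0603), NPLOC4, a VCP cofactor, −0.67 (0.0608), and USP14, a proteasome-bound deubiquitinase, −0.19 (0.435).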

How the data were processed

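Guide abundance was measured in 8 libraries of genomic DNA, 2 replicates at each of 4 time points. Per the file headers, the authors deposited 1 log2 fold change per guide, day and replicate, and a GeCKO gene score per gene. The deposited score was made in a way not given in the sources used here. The submitters' processing notes name cutadapt 3.5, Bowtie 1.1.2 and hg38. The scaling, the pseudocount and the Day 0 reference are not given there. The log base and the Day 0 reference rest on the values, which equal a library constant plus log2 of a whole-number ratio, with 1 denominator per guide over the days of a replicate.

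Values were averaged over the guides of a gene or junction with at least 3 guides. limma 3.58.1 in R 4.3.3 (lmFit, eBayes) tested the mean of the 2 replicates of a day against 0, and Day 21 minus Day 7 within replicates, over all genes, junctions or guides, with Benjamini-Hochberg adjustment and a threshold of 0.05. The single-day test was run on simulated Day 21 values, drawn independently from the fitted spread and mostly centred on 0. That run cannot show how the test behaves with bounded values or a shared Day 0 library. The change test and the class comparison were not simulated. Class means were compared per replicate with an exact two-sided sign-flip test. The members, the class split and the list of other pathway genes were chosen with earlier results of these data known. 1 gene of that list is not reported here. Full values are given for genes called at Day 21, for the 3 lowest and 3 highest core and regulatory genes, and for PSME3 and the PSMG genes. The lowest and highest junction of these genes, junctions of other categories than common, guides called higher, and the extreme guides of the extreme genes are named. The 3 days of a replicate are set against the same Day 0 library, so replicate numbers pair the samples. Deviations of same-numbered libraries from the day means correlated at 0.48, 0.41 and 0.65 over all guides. Alternatives changed the summary over guides, the centring, the variance moderation, the joint fit, the replicate block, a minimum implied Day 0 number of 50 and single replicates.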

Additional observations from a re-analysis of the deposited data

Results flagged for a closer look

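The change from Day 7 to Day 21 differed from 0 for 10 proteasome genes in the limma test of the difference itself. Their loss was thus the larger at the later day. They made up 37.0% of the members, against 23.5% of all genes and 30.0% of scored genes. The change was −2.09 for PSMD1 (adjusted p 3.24e-05), −1.77 for PSMD2 (0.000103), −1.40 for PSMA3 (0.000664), −1.39 for PSMC6 (0.000496) and −1.10 for PSMD14 (0.00257). It was −0.89 for PSMA5 (0.00937), −0.89 for PSMD4 (0.00937), −0.85 for PSMD7 (0.0136), −0.82 for PSMB1 (0.0223) and −0.70 for PSMC1 (0.033). All 10 were negative in both replicates.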

How the results depend on the processing

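The 2 replicates of a day and a pooled spread limit every test, and no count of called genes stayed within 1.5 times the main one under all settings. The Day 7 count of 2 was 1 with the median over guides (3.70% against 4.42% of all genes). It was also 1 with centring on non-targeting guides (against 3.03%) and with the replicate block (against 3.43%). It was 0 with centring on all guides, robust empirical Bayes, all days in 1 limma fit or only guides with implied Day 0 numbers from 50 up (unadjusted limma p under 0.05 for 3 to 6 genes). Without either Day 7 replicate it was 0 (4 and 0 genes unadjusted). The Day 14 count of 9 was 2 with the median over guides, 7.41% against 7.20% of all genes. It was 15 in 1 fit (55.6% against 32.5%) and 16 with the block (59.3% against 38.3%). The Day 21 count of 10 was 1 with the median over guides (3.70% against 2.04% of all genes) and 2 with centring on all guides (7.41% against 5.07%). It was 16 in 1 fit (59.3% against 39.0%) and 17 with the block (63.0% against 45.5%). Without a Day 21 replicate it was also higher, as was the share of all genes, and the lone sample is then taken to vary like the other days. The change from Day 7 to Day 21, 10 genes, was 2 with the median over guides (7.41% against 3.76% of all genes) and 5 with centring on all guides (18.5% against 8.99%). It was 12 with the block (44.4% against 29.4%), and lower than in the main fit without a Day 21 replicate. Junction and guide counts of lower calls stayed within 1.5 times, guides from 161 to 314 of 1038 and junctions from 42 to 72. A similar count does not mean the same guides: with all days in 1 fit, 185 of the main 228 were called lower again. Causes of these shifts were not tested.

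Core minus regulatory at Day 7 was 0.0992 with the median over guides, 0.12 with implied numbers of at least 50, 0.17 as a mean over all guides of a class, and reversed to −0.0457 without PSMD1 and PSMD2 and −0.0265 as a median over gene means, the last 2 settings chosen after seeing the data. At Day 14 it reversed to −0.0896 without PSMD1 and PSMD2. At Day 21 it was 0.61 with implied numbers of at least 50, 0.48 over all guides, 0.00443 without PSMD1 and PSMD2 and 0.18 as a median over gene means. The difference to non-targeting guides was −0.36, −0.89, −0.45 and −0.38 at Day 14 and −0.50, −1.08, −0.57 and −0.56 at Day 21, with the median over guides, over all guides, without PSMD1 and PSMD2, and as a median over gene means. The planned setting without PSMD5, PSMD9 and PSMD10 left the values as they were, since these genes are not among the members.

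Single genes near 0 changed sign at Day 21, none of them called by the main test. With the median over guides PSMA4 was at 0.23, PSMC5 at 0.12, PSMG1 at 0.0302 and PSMG2 at 0.19. Centred on all guides PSMC2 was at 0.17, PSMC4 at 0.18, PSMC5 at 0.23, PSMG1 at 0.0641 and PSMG2 at 0.12. Without Day 21 replicate 1 and without replicate 2, PSMA4 was at −0.98 and 0.0517, PSMB3 at 0.25 and −0.24, and PSMG2 at 0.0539 and −0.44. PSMA4 passed the threshold in the first of these.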
